A study of Capsicum annuum and Capsicum annuum
Solanum lycopersicum with 48 samples.

Results

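Among the tomato genes of grafted stems, 11 were higher at 5 than at 1 day after grafting (DAG) in both tomato and pepper heterografts and close to level over the same days in the tomato self-graft. They were selected on their FPKM values at 1 and 5 DAG out of 33604 tomato genes. The rule asked for a ratio of FPKM + 1, 5 over 1 DAG, of 2.5 or more in each heterograft, for 5 FPKM or more at 5 DAG in at least 1 of them, and for a ratio between 0.67 and 1.5 in the self-graft. FPKM is the number of sequenced fragments scaled to transcript length and library size, and the added 1 FPKM keeps ratios of low values small. Values at 1 and 5 DAG are therefore a description of how the genes were chosen. Only 3 DAG was left out of the rule, and any ratio of it to 1 or 5 DAG again holds a value the rule used.

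The samples were wedge grafted seedlings, written as scion:stock, of tomato variety M82 (Solanum lycopersicum) and pepper variety Big Dipper (Capsicum annuum). The values given here are of 3 grafts, namely pepper:tomato (pepper scion on tomato stock), tomato:pepper (tomato scion on pepper stock) and, as their reference, tomato grafted to itself, each at 1, 3 and 5 DAG. Both varieties were unmodified. By the general grafting procedure, plants were domed and kept dark for 3 days and put back in light on day 4. The 1 and 5 DAG samples would thus differ in light as well as in time, and these cannot be told apart within a graft. A sample was 1 junction of 1 plant, with 1 cm of scion and 1 cm of stock, so the heterograft samples hold stem of both species. Each of the 9 groups had 4 such plants, sequenced as polyadenylated RNA, but the deposited FPKM pools them into 1 value, so no spread between plants or standard deviation can be computed from it and no test is given for any value below. The authors' own statistics between groups were not used. In whole stem pieces, fewer cells of a kind and less RNA per cell cannot be told apart.

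A graft heals in steps. The cut faces adhere, callus fills the gap, and xylem and phloem then differentiate from callus and cambium to join the vessels of scion and stock. Tomato and pepper are known to fuse without joining their xylem well, a delayed incompatibility, so a gene that responds to the foreign partner and not to the wound itself would be sought among those that change in heterografts and stay level in self-grafts. The 11 genes fit that outline by construction. The tables and the study give them no name and no function. The reference at hand covers pepper genes only, so that 0 of the identifiers matched says nothing of the genes. They are called here by identifier, whose first digits give the chromosome. Of the 11, 3 lie on chromosome 1, 2 each on chromosomes 9, 10 and 11, and 1 each on chromosomes 6 and 7.

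The heterograft samples were mixtures of both species, and as labelled the tomato share of summed FPKM differed between days. Tomato genes held 17.9%, 51.7% and 23.1% of summed FPKM in pepper:tomato at 1, 3 and 5 DAG, and 59.5%, 29.7% and 49.2% in tomato:pepper. Tomato:pepper thus had the larger tomato share at 1 and 5 DAG, and pepper:tomato had it at 3 DAG. The 3 DAG groups therefore stand apart from the other days in both heterografts. Whether the 3 DAG heterograft labels were exchanged could not be checked here. Heterograft FPKM is scaled over both species together, which lowers every tomato value where the tomato share is low, and the self-graft table was normalized separately. Results at 3 DAG are given as labelled and, where they rest on which heterograft is which, also with the 3 DAG values exchanged. Levels across tables are given as deposited and with the tomato genes of each group rescaled to 1 total. An exact 0 can be a failed estimate, since 14 of 1740 tomato genes at 100 FPKM or more in a heterograft group were listed at 0 in another (8 of 2406 in the self-graft), and a gene at 0 is called listed at 0, without a fold change.

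Few tomato genes met the whole rule. Among 19896 tomato genes with 1 FPKM or more in at least 1 group, 6.01% were 2.5-fold or more higher at 5 than at 1 DAG for pepper:tomato, 2.73% for tomato:pepper and 3.78% in the self-graft. In both heterografts, with the minimum of 5 FPKM, 311 genes met the fold (1.56%). Of these 311, 242 (77.8%) were also 2.5-fold or more higher in the self-graft, 58 lay between a ratio of 1.5 and that fold, 0 lay under the window, and the 11 (3.54%) were within it. Over all expressed tomato genes, 72.0% were within the window. Genes that were higher over time in both heterografts were thus mostly higher in the self-graft too, and the 11 sit at the edge of that larger group. The mirrored choices gave 38 of 586 tomato genes (6.48%) that met the fold in the self-graft and were level in both heterografts. They also gave 4 of 147 pepper genes (2.72%) that met it in both heterografts and were level in the pepper self-graft. Of 17999 pepper genes, 62.5% were level in the pepper self-graft. The share of tomato genes level in both heterografts is not given here, so these percentages are not compared.

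**Figure D1:**
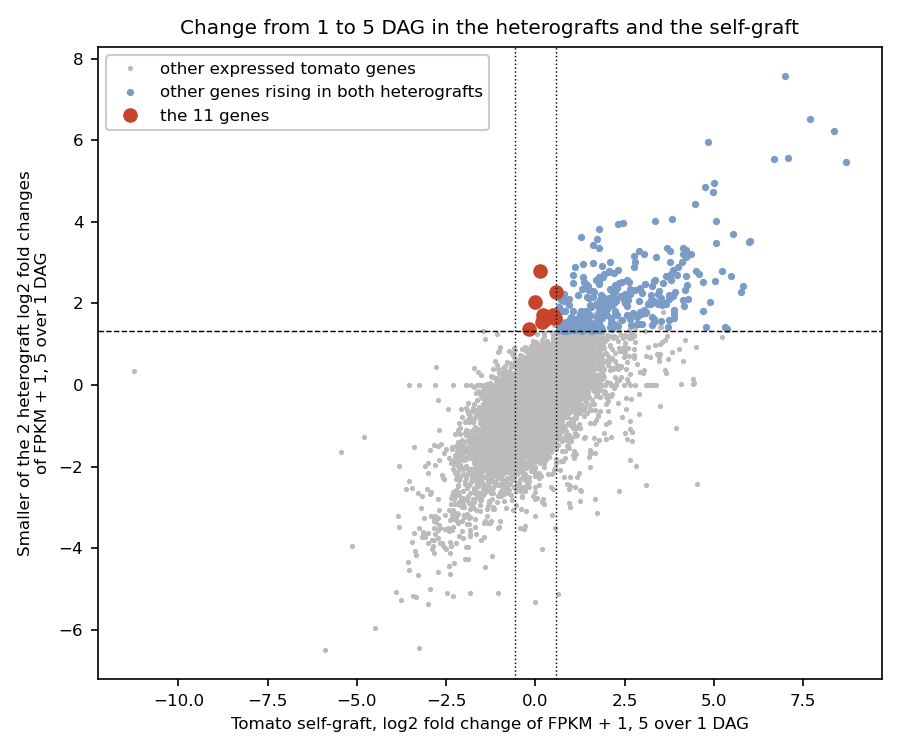
Change between 1 and 5 DAG of 19896 expressed tomato genes, with the smaller of the pepper:tomato and tomato:pepper log2 fold changes on the vertical axis and the self-graft log2 fold change on the horizontal axis, both on FPKM + 1. The dashed line marks the 2.5-fold threshold and the dotted lines the self-graft window of 0.67 to 1.5. The 11 genes (red) lie just above the bulk of level genes, while most of the 311 genes above the dashed line lie to the right of the window.

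The median log2 fold change of the 11 genes, 5 over 1 DAG, was 1.71 for pepper:tomato, 1.72 for tomato:pepper and 0.23 in the self-graft, beside 0.07, -0.21 and -0.00 over expressed tomato genes. Without the genes listed at 0 it was 1.70 and 1.69 in the heterografts over 10 genes and 0.28 in the self-graft over 9 genes. The 242 genes that met the fold in all 3 grafts had medians of 3.03, 2.23 and 2.50, so their changes were larger. Just inside the threshold, by the smaller heterograft ratio, were Solyc11g068950 at 2.59, Solyc10g079075 at 2.91 and Solyc10g081300 at 3.00. Just outside were Solyc04g079043 at 2.496, Solyc08g068150 at 2.43 and Solyc05g049980 at 2.39. At the edge of the self-graft window, Solyc09g092500 was inside with a ratio of 1.48 and Solyc06g069070 with 1.47, while Solyc02g032840 was outside with 1.514, Solyc07g055490 with 1.52 and Solyc06g069060 with 1.54. No gap in the values separates the 11 genes from those next to them.

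Solyc06g069070 was by far the most abundant of the 11. Its FPKM was 158.9, 29.4 and 500.0 in pepper:tomato at 1, 3 and 5 DAG, 117.3, 1395 and 372.3 in tomato:pepper, and 153.2, 1201 and 225.2 in the self-graft. The 5 over 1 DAG log2 fold change was 1.65 for pepper:tomato, 1.66 for tomato:pepper and 0.55 in the self-graft. At 3 DAG the self-graft was not level, with a 3 over 1 DAG log2 fold change of 2.96, and tomato:pepper had one of 3.56. Pepper:tomato went the other way, with -2.40 at 3 over 1 DAG and 4.04 at 5 over 3 DAG. Exchanging the 3 DAG values left the heterografts with opposite signs at 3 over 1 DAG, 3.13 for pepper:tomato and -1.96 for tomato:pepper. For this gene the description "higher only in heterografts" holds between 1 and 5 DAG and not at 3 DAG, when the self-graft stood above both of its other days.

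Solyc01g090980 was close to absent from the self-graft and reached about 100 FPKM in each heterograft. Pepper:tomato had 10.6, 20.7 and 95.5 FPKM at 1, 3 and 5 DAG, tomato:pepper had 0.285, 112.7 and 7.91, and the self-graft was listed at 0, then 0.249 and 0.0890. As labelled, the highest value came at 5 DAG in pepper:tomato and at 3 DAG in tomato:pepper. The log2 fold change, 5 over 3 DAG, was 2.15 for pepper:tomato and -3.67 for tomato:pepper. With the 3 DAG values exchanged, both heterografts had their highest value at 3 DAG, and the log2 fold changes were -0.24 and -1.29.

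Solyc01g110365 and Solyc10g079075 were likewise low in the self-graft. For Solyc01g110365 the FPKM was 0.0962, 4.97 and 2.58 in pepper:tomato at 1, 3 and 5 DAG, 4.41, 4.41 and 35.2 in tomato:pepper, and 0.00322, listed at 0, and 0.158 in the self-graft. Its high value was thus that of tomato:pepper at 5 DAG, and in pepper:tomato 3 DAG stood above 5 DAG. Solyc10g079075 had 2.45, 5.02 and 9.03 FPKM for pepper:tomato, 3.82, 6.03 and 13.4 for tomato:pepper, and 3.72e-05, 1.05 and 0.130 in the self-graft. As deposited it was higher on each later day in both heterografts, and above the self-graft on every day. Rescaled, pepper:tomato was lower at 3 DAG than at 1 DAG.

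Solyc07g007260 was listed at 0 in 5 of its 9 groups. Pepper:tomato had 11.2 FPKM at 5 DAG and was listed at 0 on the earlier days, tomato:pepper had 1.09 at 3 DAG and 3.07 at 5 DAG after being listed at 0 at 1 DAG, and the self-graft had 1.11 at 3 DAG and was listed at 0 at 1 and 5 DAG. It entered the rule through its 5 DAG values in both heterografts, each set against a listed 0 at 1 DAG. The minimum of 5 FPKM was met by pepper:tomato alone, and no fold change is given for this gene.

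These 4 genes, Solyc01g090980, Solyc01g110365, Solyc10g079075 and Solyc07g007260, had under 1 FPKM in the self-graft at both 1 and 5 DAG. Of 10587 tomato genes with 5 FPKM or more at 5 DAG in a heterograft, 0.434% did so, and 0 of the 242 genes that met the fold in all 3 grafts. In the self-graft at 1 and 5 DAG the 4 genes had 0.158 FPKM or less. At values this low the added 1 FPKM holds the self-graft ratio near 1 whatever the change between them. The 4 genes thus met the window of the rule by construction. With 0.1 FPKM added, Solyc07g007260 was kept and the other 3 were lost. The study reports that a small percentage of reads mapped to the wrong species, and it joined both genomes to align heterograft reads more accurately. How reads that fit both species were then assigned is not given in the sources used here. The part of such reads in these 4 genes was not tested.

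**Figure D2:**
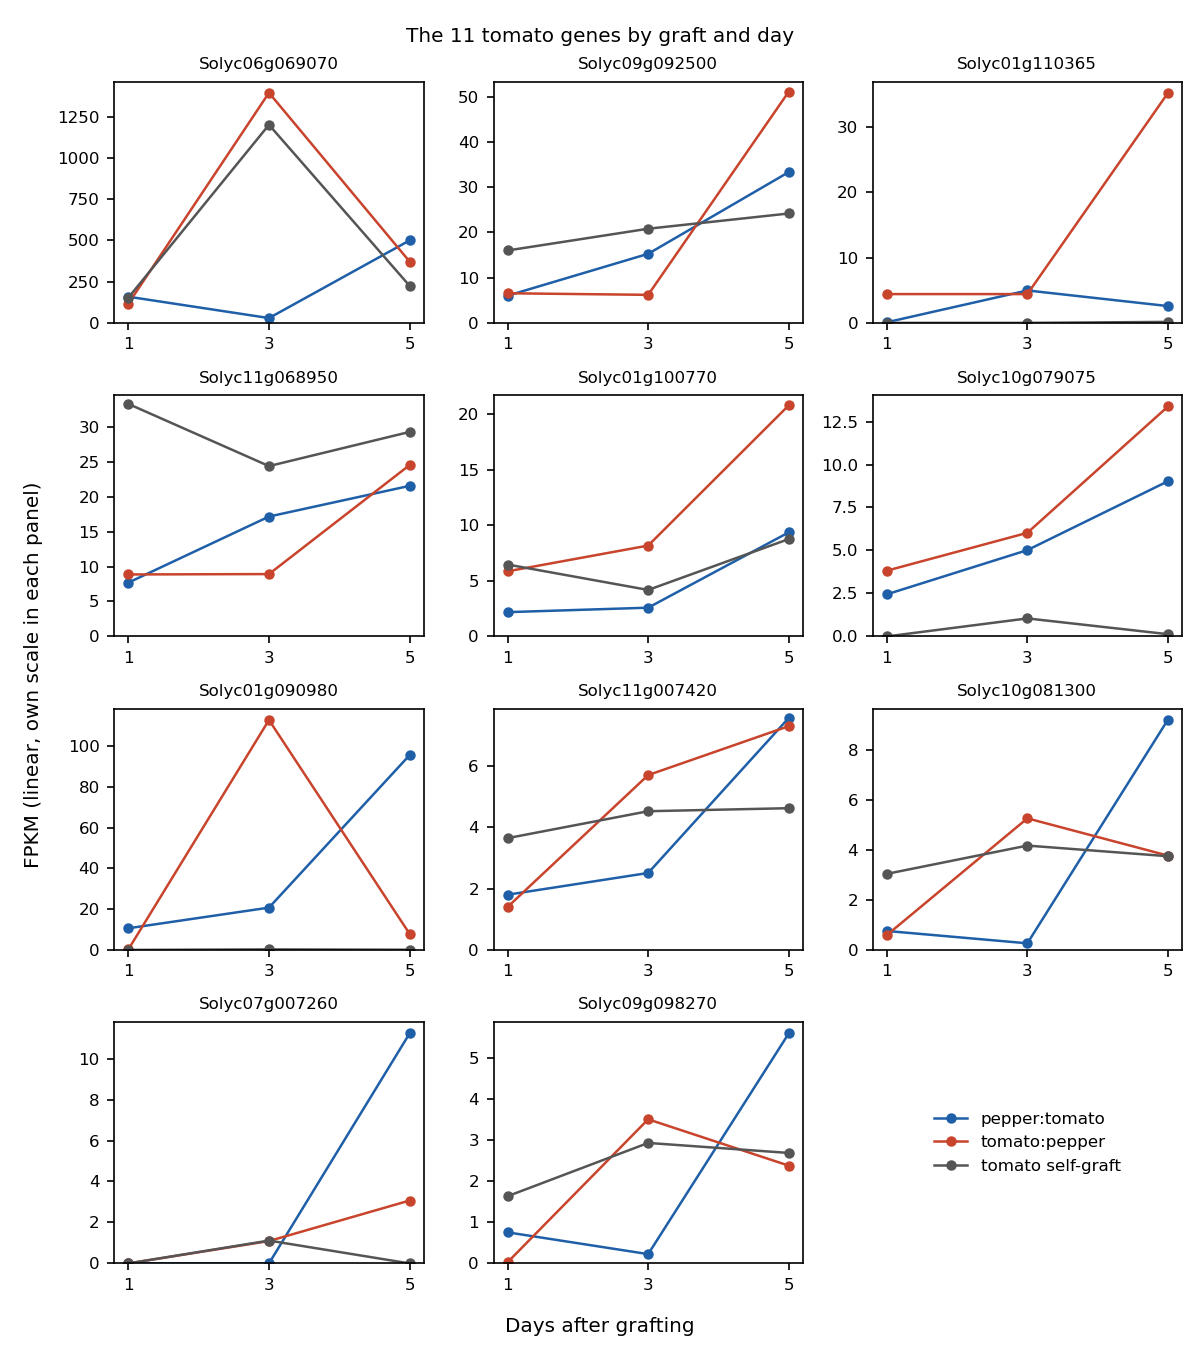
FPKM of each of the 11 tomato genes at 1, 3 and 5 DAG, 1 panel per gene on a linear axis of its own, for pepper:tomato (blue), tomato:pepper (red) and the tomato self-graft (grey), 1 value per group of 4 plants. In 4 panels the self-graft stays at or near 0, and Solyc06g069070 has its self-graft and tomato:pepper peaks at 3 DAG.

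The other 6 genes had a clear level in the self-graft. Solyc09g092500 had 6.02, 15.3 and 33.3 FPKM in pepper:tomato at 1, 3 and 5 DAG, 6.55, 6.20 and 51.1 in tomato:pepper, and 16.0, 20.8 and 24.2 in the self-graft. The log2 fold change, 5 over 1 DAG, was 2.29 for pepper:tomato, 2.79 for tomato:pepper and 0.57 in the self-graft, the last the nearest to the upper edge of the window. As deposited, both heterografts were under the self-graft at 1 DAG and over it at 5 DAG. Rescaled, pepper:tomato was over it on both days, with log2 ratios of 0.56 and 2.12.

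Solyc01g100770 followed a similar course at lower values. Its FPKM was 2.19, 2.59 and 9.37 for pepper:tomato, 5.87, 8.19 and 20.8 for tomato:pepper, and 6.48, 4.19 and 8.77 in the self-graft. Tomato:pepper was above pepper:tomato on every day.

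Solyc11g068950 differed from these in that no heterograft value passed the self-graft as deposited. Pepper:tomato had 7.70, 17.2 and 21.6 FPKM at 1, 3 and 5 DAG, tomato:pepper had 8.87, 8.92 and 24.5, and the self-graft had 33.3, 24.4 and 29.3. As deposited, the gap to the self-graft was wide at 1 DAG and narrow at 5 DAG. Rescaled, pepper:tomato was level with the self-graft at 1 DAG, with a log2 ratio of -0.11, and above it at 5 DAG, with 1.24. The identifier next to it belongs to a gene the study names LHW (Solyc11g068960), after an Arabidopsis transcription factor of vascular development. LHW had 30.1, 34.1 and 21.5 FPKM for pepper:tomato, 43.8, 13.2 and 32.8 for tomato:pepper and 108, 60.1 and 63.3 in the self-graft, with log2 fold changes, 5 over 1 DAG, of -0.47, -0.40 and -0.76, so in the heterografts its sign was opposite to that of its neighbour.

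The last 3 genes of this group stayed under 10 FPKM. Solyc11g007420 had 1.80, 2.51 and 7.56 FPKM in pepper:tomato at 1, 3 and 5 DAG, 1.40, 5.70 and 7.29 in tomato:pepper, and 3.64, 4.52 and 4.62 in the self-graft. Solyc10g081300 had 0.757, 0.264 and 9.19 for pepper:tomato, 0.590, 5.25 and 3.76 for tomato:pepper, and 3.04, 4.17 and 3.74 in the self-graft. Solyc09g098270 had 0.755, 0.226 and 5.59 for pepper:tomato, 0.0280, 3.50 and 2.38 for tomato:pepper, and 1.63, 2.93 and 2.68 in the self-graft. In Solyc10g081300 and Solyc09g098270 the tomato:pepper heterograft at 5 DAG was, as deposited, within 0.13 on the log2 scale of the self-graft, and pepper:tomato stood further above it.

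Levels against the self-graft at 1 and 5 DAG hold the values the rule used. A heterograft value that had to be high at 5 DAG and low at 1 DAG, beside a level self-graft, favours a ratio above the self-graft at 5 DAG, so these levels are a description and no excess is read from them. As deposited, 10 of the 11 genes in pepper:tomato were above the self-graft at 5 DAG, as were 9 in tomato:pepper. Of the 10587 unselected genes with 5 FPKM or more at 5 DAG in a heterograft, 8.18% and 14.1% were, and of the 242 genes that met the fold in all 3 grafts, 48.8% and 27.3%. The exceptions among the 11 were Solyc11g068950 in both and Solyc09g098270 in tomato:pepper. After rescaling, all 11 were above it in both heterografts, beside 56.9% and 56.6% of the 10587 genes and 90.5% and 52.1% of the 242. At 1 DAG, 6 genes of pepper:tomato and 7 of tomato:pepper were below the self-graft as deposited, beside 93.3% and 60.8% of the 10587. After rescaling these were 2 and 7 genes, beside 42.1% and 58.5%.

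As deposited and on FPKM + 1, 4 genes were 2.5-fold or more above the self-graft at 5 DAG in both heterografts, beside 0.708% of the 10587 genes. These were the 4 with under 1 FPKM in the self-graft, where this follows from how they entered. Solyc11g068950 alone was 2.5-fold or more below it at 1 DAG in both, beside 7.92%. Rescaled, 7 were above by that fold at 5 DAG (2.35% of the 10587), with Solyc06g069070, Solyc09g092500 and Solyc01g100770 added, and 0 were below by it at 1 DAG (2.83%). Solyc10g079075 had log2 ratios to the self-graft, at 5 DAG and as deposited, of 3.15 for pepper:tomato and 3.67 for tomato:pepper, and Solyc01g110365 had 1.63 and 4.96. In Solyc09g092500 the same log2 ratios were 0.45 and 1.05 at 5 DAG and -1.28 and -1.17 at 1 DAG. For Solyc11g068950 they were -0.42 and -0.25 at 5 DAG and -1.98 and -1.80 at 1 DAG. Rescaled, they were 1.24 and 0.47 at 5 DAG and -0.11 and -1.77 at 1 DAG.

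**Figure D3:**
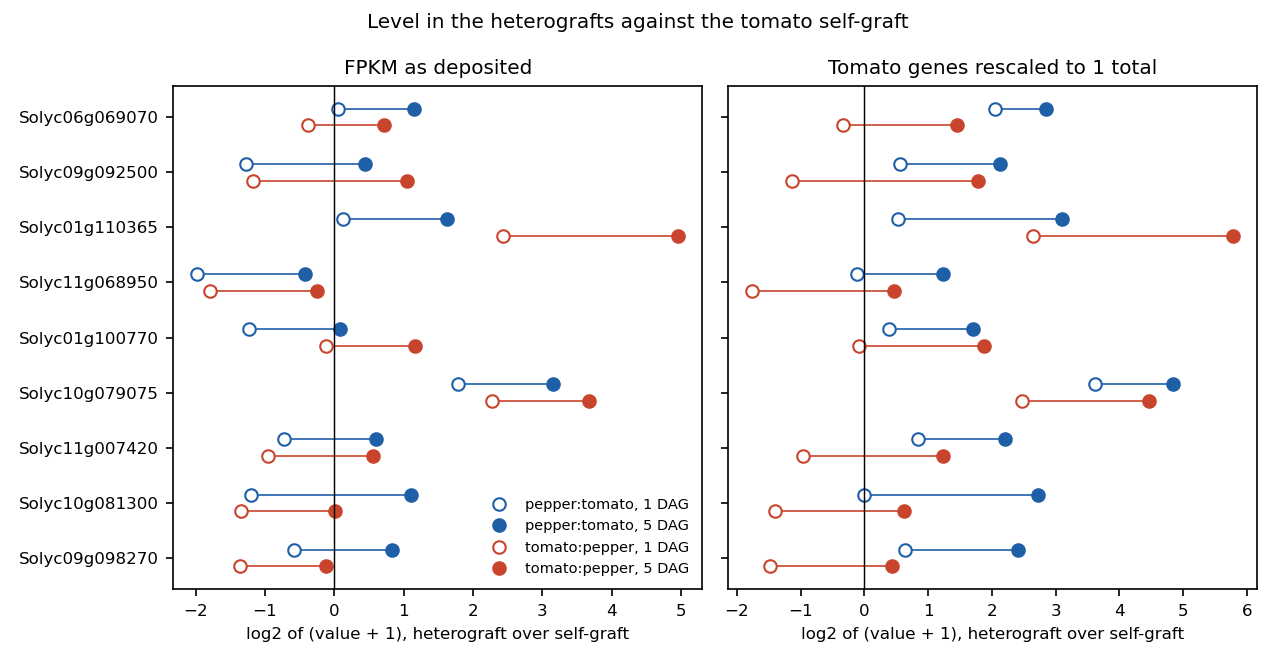
Log2 ratio of heterograft to tomato self-graft, on the value + 1, at 1 DAG (open) and 5 DAG (filled) for pepper:tomato (blue) and tomato:pepper (red), as deposited on the left and with tomato genes rescaled to 1 total on the right. The 9 genes above 0 in the self-graft on both days are drawn, 1 value per group. Filled points lie right of open ones by the choice of the genes, and on the right every filled point is above 0.

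At 3 DAG, a day outside the rule, the heterografts differed. The ratios below share their 1 or 5 DAG value with the rule, which asked for low values at 1 DAG and high ones at 5 DAG, so the shares over unselected genes are given beside the counts and nothing is read from the excess. Against 1 DAG, 1 of the 11 genes (Solyc01g110365) was 2.5-fold or more higher in pepper:tomato, where 30.1% of expressed tomato genes were, and 1 (Solyc06g069070) was as much lower, where 4.16% were. In tomato:pepper 5 genes were 2.5-fold or more higher, against 3.69% of expressed genes, and in the self-graft 1 was, Solyc06g069070, against 5.73%. The 5 genes of tomato:pepper were Solyc06g069070, Solyc01g090980, Solyc09g098270, Solyc10g081300 and Solyc11g007420, with log2 fold changes of 3.56, 6.47, 2.13, 1.98 and 1.48. Of the 242 genes that met the fold in all 3 grafts, 30.6% were higher by that fold at 3 DAG for pepper:tomato, 81.4% for tomato:pepper and 61.2% in the self-graft, so a higher share in tomato:pepper than in pepper:tomato at 3 DAG was common to both sets. Rescaled, 6 of the 10 pepper:tomato values at 3 over 1 DAG turned sign, against 1 of 10 for tomato:pepper.

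From 3 to 5 DAG the order was the reverse. In pepper:tomato 6 genes were 2.5-fold or more higher at 5 than at 3 DAG, against 6.05% of expressed genes. These include Solyc07g007260, which was listed at 0 at 3 DAG. In tomato:pepper 3 were, against 2.65%, and 2 were as much lower, Solyc06g069070 and Solyc01g090980, against 1.70%. In the self-graft 0 were, against 1.61%, and 1 was as much lower, Solyc06g069070, against 3.43%. Of the 242 genes, which were likewise selected to be high at 5 DAG, 75.2% were higher by that fold in pepper:tomato, 11.2% in tomato:pepper and 34.3% in the self-graft. The 3 DAG value lay between those of 1 and 5 DAG in 7 genes of pepper:tomato, in 6 of tomato:pepper and in 5 of both, beside 51.7%, 45.9% and 24.8% of the 242 genes. After exchanging the heterografts' 3 DAG values, it lay between in 8 and 7 genes, and in 6 of both, beside 57.0%, 55.8% and 31.4% of the 242. All these counts of the 11 include Solyc07g007260, listed at 0 at 1 DAG in both heterografts. After the exchange, the genes 2.5-fold or more higher at 3 than at 1 DAG numbered 6 for pepper:tomato and 1 for tomato:pepper. As labelled, the tomato share was higher at 3 than at 1 DAG in pepper:tomato, with 1 such gene. It was lower in tomato:pepper, with 5 such genes. The part of the tomato share in these counts was not tested.

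Set against each other, the heterografts did not order these genes all alike. The orders hold the 1 and 5 DAG values the rule used, so they are a description and nothing is read from an excess. On all 3 days, 3 of the 11 were higher in the heterograft with the higher tomato share, namely Solyc09g092500, Solyc01g110365 and Solyc11g068950. That heterograft was tomato:pepper at 1 and 5 DAG and pepper:tomato at 3 DAG. Of expressed tomato genes 58.4% had this order, and of those with 5 FPKM or more at 5 DAG 71.4%. Of the 242 genes that met the fold in all 3 grafts, 7.85% had it. The opposite order on all 3 days, higher where the tomato share was lower, held for 5 genes when any difference, however small, was counted. These were Solyc06g069070, Solyc01g090980, Solyc11g007420, Solyc10g081300 and Solyc09g098270. Counted alike, 8.04% of expressed genes and 4.89% of those with 5 FPKM or more at 5 DAG had that order. Solyc07g007260 was listed at 0 in both heterografts at 1 DAG and had that opposite order on the other days. Solyc01g100770 and Solyc10g079075 were higher in tomato:pepper on every day. An exchange of the 3 DAG values moves the shares and the genes together and leaves the orders by tomato share as they are. The part of the pepper RNA in them was not tested.

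Within the 5 genes the log2 ratio of pepper:tomato to tomato:pepper changed sign between 1 and 3 DAG and again between 3 and 5 DAG. For Solyc01g090980 it was 3.18, -2.39 and 3.44 at 1, 3 and 5 DAG, and for Solyc06g069070 it was 0.43, -5.52 and 0.42. Solyc09g098270 had 0.77, -1.88 and 0.96, Solyc10g081300 had 0.14, -2.31 and 1.10, and Solyc11g007420 had 0.22, -0.93 and 0.05. The smallest of these ratios, those of Solyc11g007420 at 5 DAG and of Solyc10g081300 at 1 DAG, are too near 0 to be given a direction without replicate values. The same holds for the 3 genes in the order of the tomato share. Solyc09g092500 had -0.11 at 1 DAG, Solyc01g110365 had 0.14 at 3 DAG, and Solyc11g068950 had -0.18 at both 1 and 5 DAG. Asking for a difference of 1.2-fold or more on each day, a margin chosen after these values were seen, left 3 of the 5 genes, beside 3.09% of genes with 5 FPKM or more at 5 DAG and 23.1% of the 242. The same order was found in 38.0% of the 242 genes that met the fold in all 3 grafts, so it is shared with genes that were not level in the self-graft. At 5 DAG, 6 of the 11 were higher in pepper:tomato, against 10.9% of genes with 5 FPKM or more and 67.8% of the 242.

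**Figure D4:**
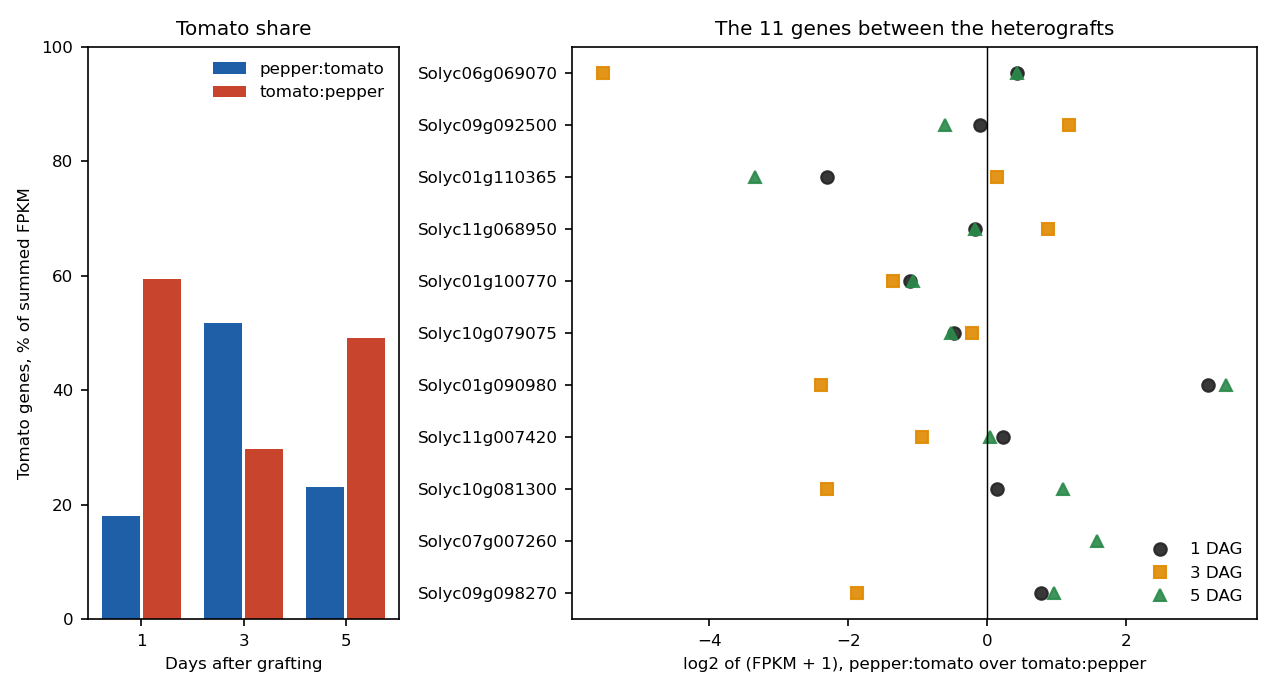
Left, the share of summed FPKM held by tomato genes (%) in pepper:tomato (blue) and tomato:pepper (red) at 1, 3 and 5 DAG. Right, the log2 ratio of pepper:tomato to tomato:pepper on FPKM + 1 for each of the 11 genes at 1 DAG (circles), 3 DAG (squares) and 5 DAG (triangles), with days on which a gene was listed at 0 left out. In 5 genes the squares lie left of 0 and the other symbols right of it, opposite to the order of the tomato shares, and in 3 genes the reverse.

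The genes are scattered in the genome, but their neighbours were not all level. No pair of the 11 lay within 5 places of each other in identifier order. Of the 38 expressed genes within 2 places of a member, 6 (15.8%) were 2.5-fold or more higher at 5 than at 1 DAG in both heterografts, against 1.74% of expressed genes and 10.6% of the expressed neighbours of the 242 genes. They were Solyc01g110360, Solyc06g069060, Solyc07g007240, Solyc09g092480, Solyc11g007400 and Solyc11g007410, named here after their values were seen.

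Beside Solyc11g007420, Solyc11g007400 had 4.00, 10.6 and 23.8 FPKM in pepper:tomato at 1, 3 and 5 DAG, 5.43, 18.4 and 21.7 in tomato:pepper, and 11.8, 13.8 and 20.9 in the self-graft, a ratio of 1.72 in the self-graft that kept it out of the rule. Beside Solyc06g069070, Solyc06g069060 had 1.02, 14.8 and 19.3 FPKM for pepper:tomato, 1.70, 10.3 and 8.80 for tomato:pepper, and 19.0, 13.8 and 29.8 in the self-graft. Beside Solyc01g110365, Solyc01g110360 had 2.07, 57.6 and 9.14 FPKM for pepper:tomato, 46.3, 18.5 and 202.5 for tomato:pepper, and 79.7, 163.9 and 389.6 in the self-graft. Its heterograft values ran in the same order as those of Solyc01g110365 over pepper:tomato and over 1 and 5 DAG of tomato:pepper, while the self-graft was high for one and near 0 for the other. Whether such neighbours are copies that share reads could not be seen from identifiers.

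Another feature of the identifiers was their version number, which the annotation raises when a gene model is revised. Version 1 was carried by 7 of the 11, against 19.2% of genes with 5 FPKM or more at 5 DAG in a heterograft and 33.1% of the 242 genes.

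Genes outside the 11 with the most similar course were not level in the self-graft. By Pearson's r with the mean of the 11 scaled courses over the 9 groups, given as a description, the nearest were Solyc09g007660 at 0.958, Solyc09g007650 at 0.944, Solyc02g093090 at 0.922, Solyc06g053950 at 0.921 and Solyc01g103360 at 0.915. Their self-graft ratios, 5 over 1 DAG, ran between 2.76 and 3.33, and their heterograft ratios between 5.05 and 12.7. The 11 themselves are part of that mean, which favours a higher r, unlike the 5 genes outside. Their values of r lay between 0.40 (Solyc11g068950) and 0.96 (Solyc11g007420), so they do not form 1 course. The 9 points share their libraries and their scaling.

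Tomato regulators of grafting and vascular development with an identifier in the study were looked up in the same tables. None of these 56 genes was among the 11. The 11 are so few among 19896 expressed genes that this says little of the list. Of the 51 expressed, 4 were 2.5-fold or more higher, 5 over 1 DAG, in pepper:tomato, 3 in tomato:pepper and 7 in the self-graft. Over all expressed tomato genes, 6.01%, 2.73% and 3.78% were. As much lower were 1, 7 and 4 of the 51, with no share over all genes at hand to set beside them. The 3 that were higher in both heterografts, JRE4, ERF4 and NST1, the last a secondary cell wall regulator in Arabidopsis, were also higher in the self-graft, with self-graft log2 fold changes of 4.12, 2.32 and 1.77. WOX4, a cambium regulator in Arabidopsis, had 10.5, 2.67 and 16.8 FPKM in pepper:tomato at 1, 3 and 5 DAG, 8.19, 18.0 and 13.2 in tomato:pepper, and 15.1, 19.9 and 20.8 in the self-graft, with log2 fold changes, 5 over 1 DAG, of 0.63, 0.62 and 0.43. Of the 51, 24 (47.1%) were level in the self-graft, beside 72.0% of expressed tomato genes. None of those 24 met the fold in both heterografts.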

How the data were processed

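Junctions of 4 plants per group were sequenced as single-end, strand-marked poly(A) libraries. The deposited tables hold FPKM, which the authors made with TuxNet at default settings (fastq-mcf, HISAT2, Cufflinks; versions not given in the sources used here), with 1 value per group. Self-graft reads were aligned to their own species and heterograft reads to both genomes joined (tomato cv Heinz and pepper CM334). Read counts are not in these tables, so the depth behind a value is unknown and no interval can be given. The 24 columns of the authors' fold changes and q-values were not used. Groups followed sample titles. Pepper is named as the organism of the tomato self-grafts, against their titles, and that label was set aside.

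The members, lists and rules were chosen with earlier results of these data known. Ratios used FPKM + 1. Genes reaching 1 FPKM in any group were taken as expressed. A call is a ratio of 2.5 or more, with no test. Rescaling set the tomato sum of each group to 1e+06. All 11 members are named, as are the 3 genes just outside each limit, the 5 genes most similar over the 9 groups, and genes the study names. Lists by description could not be made, since the reference at hand covers pepper genes only and 0 tomato identifiers could match it. Sequences were not used here. The rule recovered 200 of 200 members in simulated data, which checks the code only. Alternatives are given in the closing section. Python 3.11.15, pandas 2.3.3, numpy 2.4.6 and matplotlib 3.10.9 were used.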

Additional observations from a re-analysis of the deposited data

Results flagged for a closer look

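In 2 of the 11 genes the heterografts moved in opposite directions by 2.5-fold or more each. The difference was not tested because there is 1 value per group. Other genes had opposite signs with a smaller change in at least 1 heterograft. Solyc10g081300, for example, had log2 fold changes, 3 over 1 DAG, of -0.48 for pepper:tomato and 1.98 for tomato:pepper. In Solyc06g069070 the log2 fold change, 3 over 1 DAG, was -2.40 for pepper:tomato and 3.56 for tomato:pepper, and 5 over 3 DAG it was 4.04 and -1.90. In Solyc01g090980 the log2 fold change, 5 over 3 DAG, was 2.15 for pepper:tomato and -3.67 for tomato:pepper. After an exchange of the 3 DAG values, the Solyc01g090980 values were -0.24 and -1.29, so that opposite direction was lost, and those of Solyc06g069070, 5 over 3 DAG, were -1.48 and 3.62, so it stayed with the heterografts changed over. The tomato share of summed FPKM at 3 DAG was 51.7% for pepper:tomato and 29.7% for tomato:pepper, and its part in these values was not tested.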

How the results depend on the processing

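The number of genes that met the rule depended on its settings. It was 11 as chosen, 5 with 5 FPKM added, 27 with a 2-fold threshold, 7 with a narrower self-graft window (from 0.8) and 39 with a wider one (from 0.5), and 58 with tomato genes rescaled, of which 9 were among the 11. With the tomato sum of each graft held at its 1 DAG value, an alternative chosen after seeing the data, it was 25, of which 6 were among the 11. It was 11 with 0.1 FPKM added, but only 6 were shared, and it was 8 with a 3-fold threshold, 13 without a minimum, 8 with a minimum of 10 FPKM and 15 with fold changes centred on the median. Each gene was kept under 6 to 9 of 10 settings. Of these settings, the 2-fold threshold, the wider window and the missing minimum only loosen the rule and could lose no gene. The median log2 fold change of the 11, 5 over 1 DAG, was 2.45 for pepper:tomato and 2.49 for tomato:pepper with 0.1 FPKM added, 1.06 and 1.09 with 5 FPKM added, and 2.35 in tomato:pepper after rescaling. Genes 2.5-fold or more higher at 3 than at 1 DAG numbered 2 in pepper:tomato with 0.1 FPKM added, 0 with 5 FPKM added and 6 with the 3 DAG values exchanged. In tomato:pepper they numbered 2 with 5 FPKM added and 1 after the exchange, and in the self-graft 4 with 0.1 FPKM added. Rescaled, 0 genes were 2.5-fold or more under the self-graft at 1 DAG in both heterografts and 7 over it at 5 DAG. Of 212 alternative log2 fold changes of single genes, 20 had the other sign, 10 after rescaling, 7 after the exchange and 3 after centring, all at 3 over 1 DAG. Rescaling turned 6 of 10 in pepper:tomato, 1 of 10 in tomato:pepper and 3 of 8 in the self-graft. Among changes of 2.5-fold or more, 3 turned, all by the exchange, namely Solyc06g069070 to 3.13 in pepper:tomato and -1.96 for tomato:pepper, and Solyc10g081300 to -0.33 in tomato:pepper. Higher where the tomato share was lower were 5 genes at any difference and 3 at 1.2-fold or more. The causes were not tested, except that a larger added FPKM shrinks ratios of low values by construction. With 1 pooled value per group, leaving out a replicate could not be tried. No paired analysis was possible because the columns carry no replicate numbers.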

Other observations

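Solyc07g007250, next to Solyc07g007260, had 0.394, 1.39 and 213.9 FPKM in pepper:tomato at 1, 3 and 5 DAG, 1.82, 29.6 and 2.12 in tomato:pepper, and 1.24, 23.3 and 46.5 in the self-graft, so its 5 over 1 DAG ratio was 154 for pepper:tomato, 1.11 for tomato:pepper and 21.2 in the self-graft. The identifier before that, Solyc07g007240, had 7.38, 4104 and 126.8 FPKM for pepper:tomato, 206.5, 131.0 and 714.2 for tomato:pepper, and 135.8, 4722 and 1042 in the self-graft. Both genes, unlike Solyc07g007260, passed the 2.5-fold limit in the self-graft, and both were chosen after their values were seen.

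Of the 4 pepper genes chosen by the mirrored rule, CA01g25590 was the most abundant, with 107.9, 40.7 and 296.4 FPKM in pepper:tomato at 1, 3 and 5 DAG, 21.5, 170.0 and 56.3 in tomato:pepper, and 169.3, 214.8 and 248.5 in the pepper self-graft.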
